A study of Mus musculus with 5 samples.

Results

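Cytosolic ribosomal proteins are the protein parts of the ribosome that works in the cytoplasm. Their genes were taken from the count table by symbol. The set holds protein-coding genes named Rpl (large subunit) or Rps (small subunit) with a number, plus Rplp0, Rplp1, Rplp2 and Rpsa, without the Rps6k kinases and without pseudogenes. The rule found 81 genes of 55335 in the table, 50 of the large and 31 of the small subunit, and used no measured value. Primary lung fibroblasts grown from mouse lung had received TGF-β1, the cytokine that turns cultured fibroblasts into matrix-secreting myofibroblasts, over 24 h at 5 ng/mL, giving 3 libraries, while 2 control libraries came from cells given vehicle. All libraries came from lung fibroblasts in culture, and no genetic change is named. The mice's strain, sex and age are not stated here. Whether the independent replicates were different animals or different dishes is not stated either, so each p-value reflects the spread of these 5 libraries, which may be technical.

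The cytosolic ribosome joins a small subunit, which reads the mRNA, to a large subunit, which forms the peptide bond and passes the new chain through an exit tunnel. Its proteins are needed in near equal numbers, and most of their mRNAs begin with a C followed by an unbroken run of C and T (U in the RNA), the terminal oligopyrimidine (TOP) tract. The protein LARP1 and the kinase mTOR act on that tract to hold back or release translation, so the amount of a ribosomal protein can change without a change in its mRNA. Only mRNA was measured in this series.

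The letters around the annotated start of transcription were searched for runs of C and T like those of this tract. RefSeq promoters of build GRCm38.p6, from 250 bases before to 50 bases after each start, were matched by symbol to 61 of the 81 genes. A run of at least 8 C or T letters that reached within 5 bases of the start stood in 23 of these 61 genes (37.7%) and in 11.0% of the 27025 genes in that table. Of the longest runs, 6 are shown, with 15 bases either side of the start, 5′ to 3′, on the gene's own strand. Not all of the matched genes were considered for display, so a run of similar length may be missing. A run could begin before or after the annotated start and with either letter. It is therefore not by itself shown to be a TOP tract. Capitals mark the run, which in some genes goes on past the letters shown.
Rpl7a (chr2:26910792-26910821, plus strand): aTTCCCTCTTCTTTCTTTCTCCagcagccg
Rpl27a (chr7:109519180-109519209, plus strand): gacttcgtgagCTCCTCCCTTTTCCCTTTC
Rpl34 (chr3:130730323-130730352, minus strand): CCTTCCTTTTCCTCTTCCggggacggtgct
Rpl35 (chr2:39005117-39005146, minus strand): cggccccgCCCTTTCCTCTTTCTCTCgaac
Rpl15 (chr14:18270972-18271001, minus strand): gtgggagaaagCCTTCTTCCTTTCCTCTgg
Rpl13a (chr7:45128731-45128760, minus strand): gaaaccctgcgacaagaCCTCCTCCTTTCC

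The same window is shown for other genes at the ends of the range of response described further on. Rpl38, Rps23 and Rpl37 were among the largest increases, and Rps27, Rpsa and Rpl10a among the smallest changes. Capitals again mark the longest C or T run that comes within 5 bases of the start, whatever its length.
Rpl38 (chr11:114668565-114668594, plus strand): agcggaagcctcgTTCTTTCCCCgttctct
Rps23 (chr13:90923107-90923136, plus strand): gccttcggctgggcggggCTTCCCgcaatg
Rpl37 (chr15:5116598-5116627, plus strand): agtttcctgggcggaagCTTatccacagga
Rps27 (chr3:90213634-90213663, minus strand): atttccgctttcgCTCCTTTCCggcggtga
Rpsa (chr9:120127751-120127780, plus strand): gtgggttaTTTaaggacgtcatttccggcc
Rpl10a (chr17:28328456-28328485, plus strand): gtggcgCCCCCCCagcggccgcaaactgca

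Both ends of the range hold genes with a run of 8 or more and genes without. Over the 23 tested genes with such a run the median log2 fold change was 0.27, and over the 35 without it was 0.26. An annotated start a few bases off the one in use would hide a run, so a missing run says only that these letters are not in this window.

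Motifs known from ribosomal protein promoters were searched on both strands of the same 300 bases. CCGGAAG, the core bound by ETS factors such as GABP, was in 25 of 61 genes (41.0%) and in 9.93% of all genes in the table. The GC box GGGCGG was in 37 (60.7%) against 38.2%. TATAAA was in 6 (9.84%) against 15.7%, and the E-box CACGTG was in 6 against 8.09%. On the other strand the ETS core reads CTTCCGG, whose first letters can be part of a C or T run. The 3 genes with the largest increases and a match before the start are shown with the core in capitals.
Rpl38 (chr11:114668549-114668578, plus strand): gggttaaccgtCCGGAAGcggaagcctcgt
Rpl35 (chr2:39005240-39005269, minus strand): ggaaggcaggaCTTCCGGgaagcggagggc
Rpl37 (chr15:5116579-5116608, plus strand): accaagacccgCCGGAAGtagtttcctggg
The median log2 fold change was 0.27 over the 24 tested genes with the core and 0.26 over the 34 without.

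Nearly every ribosomal protein gene rose with TGF-β1, and each by a small amount. Of the 81 genes, 78 passed the filter on low counts and were tested with all other genes. In edgeR's quasi-likelihood test 76 rose at an adjusted p under 0.05, 0 fell and 2 were not called. Over all 16380 genes tested, 21.3% rose and 23.2% fell. Among the 2920 genes at least as abundant as the scarcest tested member (Rpl38, at 71.1 CPM, counts scaled to library size), 48% rose and 22.1% fell, with a median log2 fold change of 0.10. The members' median log2 fold change was 0.26, a fold of 1.20, against 0.00 over all genes tested. In bulk RNA, a change in the number of cells of a type and a change in RNA per cell cannot be told apart.

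The response was narrow. Fitted folds ran from 1.06 (Rpl21) to 1.39 (Rpl38), 70 of the 78 lay between 1.1 and 1.3, and 0 reached 1.5. Standard errors (SE) of the log2 fold changes were 0.021 to 0.0804. The members' mean control levels ran from 57.7 to 1231 CPM, scaled by the trimmed mean of M-values (TMM). In 77 of the 78 every TGF-β1 library lay above both controls, which held for 31.6% of all genes tested. The exception was Rps27.

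**Figure D1:**
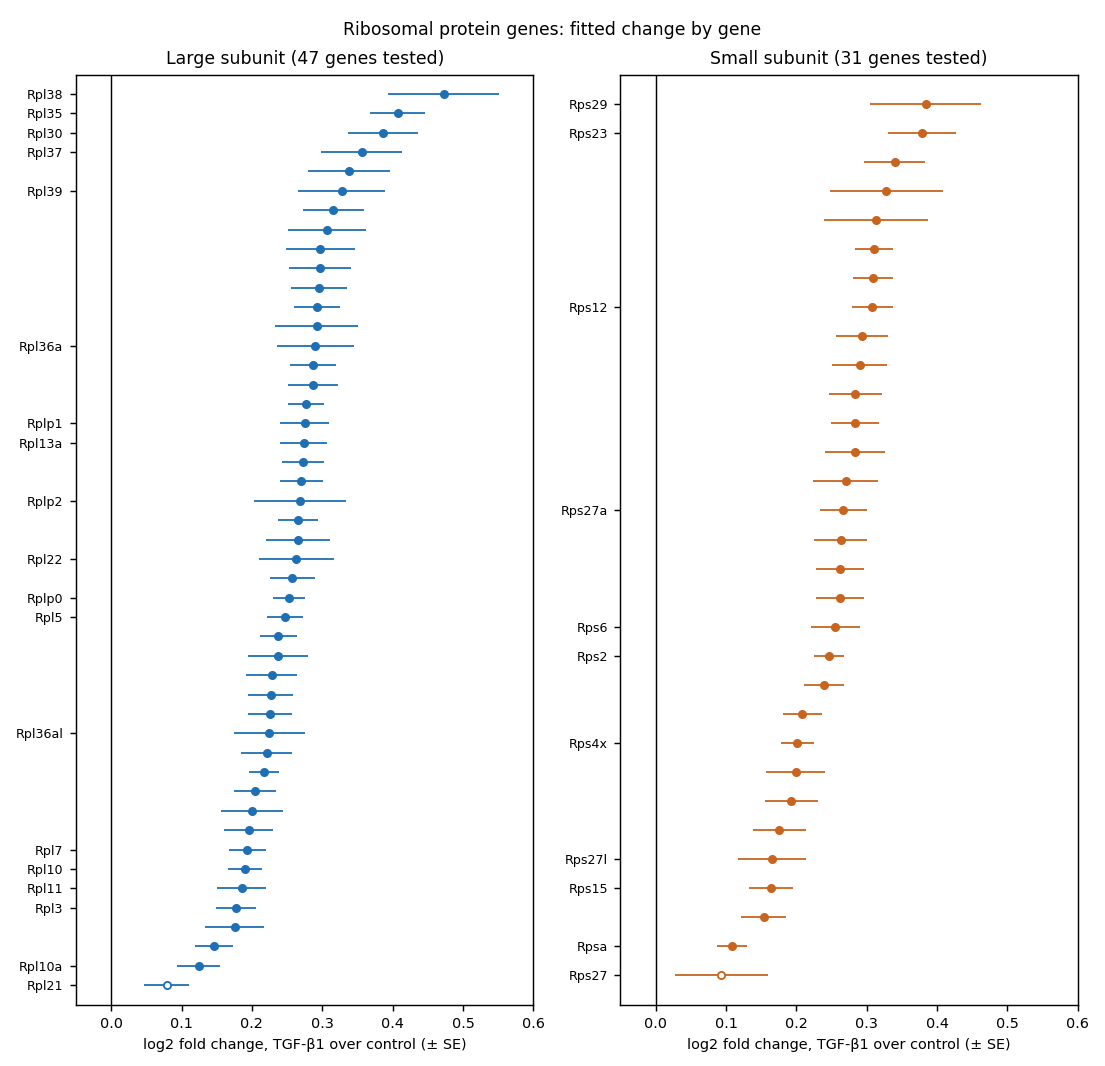
Fitted log2 fold change of TGF-β1 over control for each tested gene, with bars of ± 1 SE, in large-subunit (left, 47) and small-subunit (right, 31) genes. Names are given for genes described in the text, filled points had an adjusted p under 0.05, and the open points are Rpl21 and Rps27; all 78 values lie right of 0, between 0.079 and 0.47.

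Genes of both subunits rose. In the large subunit 46 of 47 tested genes rose, with a median log2 fold change of 0.27, and in the small subunit 30 of 31 rose, with a median of 0.26. Counts of the small subunit summed to 68.1% and 67.8% of those of the large subunit in the controls and to 67.8%, 67.8% and 68.1% with TGF-β1. The groups overlap, and the exact permutation test of the log2 ratio gave p = 0.5.

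Members held 2.32% and 2.39% of all counts in the control libraries. They held 2.65%, 2.56% and 2.58% in TGF-β1 replicates 1, 2 and 3, so each treated library was above both controls. The difference of the means was 0.244 percentage points (2.35 ± 0.0520 against 2.60 ± 0.0457, SD, n = 2 and 3). The exact two-sided permutation test gave p = 0.1, the smallest that 2 against 3 libraries allow.

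**Figure D2:**
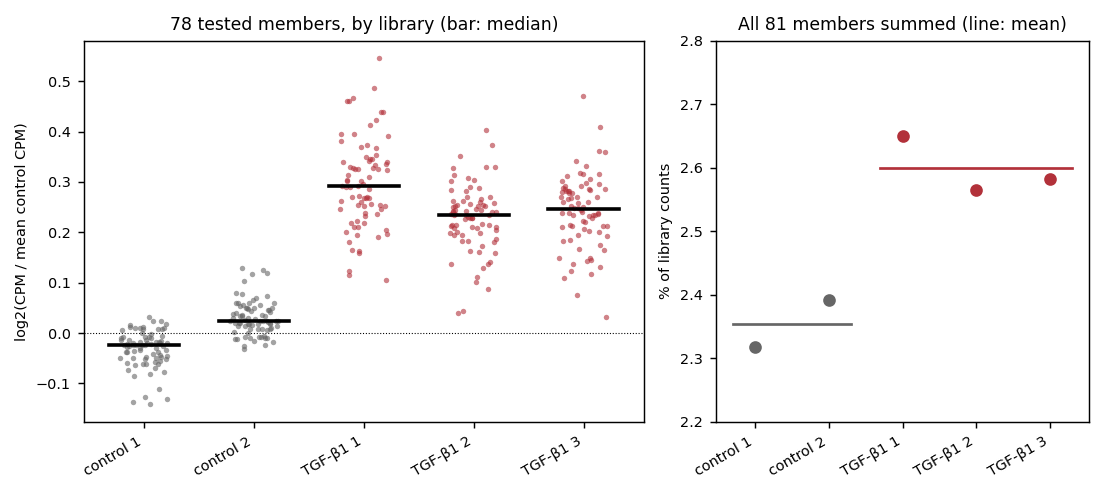
Left, log2 ratio of CPM to the mean control CPM for the 78 tested members in each library, with the median as a bar; right, percent of each library's counts held by all 81 members, with group means as lines and an axis that starts at 2.2. Medians are −0.025 and 0.024 in the controls and 0.29, 0.24 and 0.25 with TGF-β1, and the 3 shares with TGF-β1 lie above both controls.

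The libraries were not interchangeable within a group. Control 2 lay above control 1 in 64 of the 78 members, by a median of 0.049 on the log2 scale, while over all genes tested the median was −0.0035. Among the TGF-β1 libraries, replicate 1 was the highest for 66 members and replicate 2 the lowest for 48. The gap between controls was small beside the response for most members, and Rps27 was the only 1 in which it exceeded the fitted change.

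How large the rise appears depends on the scaling. TMM sets the median of all genes near 0. Scaled by library totals alone, the median of all genes moved to −0.099 and that of the members to 0.16. Over all genes 14.2% then rose and 30% fell, and 62 members rose while 0 fell. The 14 calls lost included Rpl10a, Rpl11, Rpl13, Rplp2, Rps15, Rps19, Rps27l and Rpsa. Rpl21 and Rps27 then had fitted changes below 0, at −0.021 and −0.0063 with adjusted p = 0.643 and 0.948, and 72 members had every TGF-β1 library above both controls, against 22.3% of all genes. The distance between the members' median and that of all genes was 0.26 under each of these scalings. A change of scaling shifts all genes nearly alike, so this distance could hardly have differed.

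Other tools and filters left the count as it was. The test gave 76 members higher and 0 lower under median-of-ratios scaling (all genes: 21.5% higher, 23% lower), upper-quartile scaling (20.5% and 23.7%), no low-count filter (12% and 13.3%) and a filter of over 1 CPM in 2 libraries (25.3% and 26.1%). It did so too with DESeq2 (20.5% and 21.5%), limma-voom (21.1% and 23.8%) and the replicate number as a block (21.6% and 22.8%).

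The lateral stalk of the large subunit recruits elongation factors to the ribosome. Its base Rplp0 (ENSMUSG00000067274, chromosome 5, 115559467 to 115563727 of GRCm38) was the most abundant member per kilobase of transcript. Mean control levels on that scale were 906 CPM per kilobase for Rplp0, 883 for Rplp1, 746 for Rps2, 585 for Rps4x and 576 for Rps12. Unscaled by length, Rplp0 stood at 1251 and 1211 CPM in the controls and at 1485, 1451 and 1462 CPM with TGF-β1. The groups did not overlap, and the log2 fold change was 0.25 (SE 0.0227, adjusted p = 1.89e-05). Rplp1, an acidic stalk protein, went from 425 and 456 CPM to 540, 522 and 538 CPM (log2 fold change 0.27, adjusted p = 0.000166). Rplp2, its partner, stood at 143 and 170 CPM in the controls, a wider gap than in the other stalk genes, and at 196, 184 and 186 CPM with TGF-β1. Its log2 fold change was 0.27 (adjusted p = 0.00834), and without control 1 the call was lost (adjusted p = 0.0626). Rpl12, which binds beside the stalk, also rose, so 4 of 4 stalk genes did, with a median of 0.27. Of all 78 tested members 76 rose, against 21.3% of all genes tested. Counts by site, here and below, therefore say little about any single site.

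The genes around the peptidyl transferase centre, where the peptide bond forms, also rose, as nearly all members did. All 4 did so, with log2 fold changes of 0.18 (Rpl3), 0.22 (Rpl4), 0.28 (Rpl8) and 0.19 (Rpl10) and a median of 0.20. Rpl10, an X-linked protein that joins the large subunit late in the cytoplasm, read 456 and 462 CPM in the controls. With TGF-β1 it read 520, 522 and 529 CPM, a log2 fold change of 0.19 (SE 0.0245, adjusted p = 0.000204). Its controls and its treated libraries each lay close together, with a clear gap between the groups.

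Rpl5 and Rpl11 form a particle with 5S RNA that also binds the p53 regulator Mdm2. Rpl5 was at 391 and 392 CPM in the controls and at 470, 463 and 461 CPM with TGF-β1 (log2 fold change 0.25, adjusted p = 4.5e-05). Rpl11 was at 213 and 225 CPM and then at 255, 247 and 246 CPM (log2 fold change 0.19, adjusted p = 0.0021). Both rose without overlap. Rpl13a, which also takes part in translational silencing after interferon, rose from 523 and 547 CPM to 670, 630 and 641 CPM (log2 fold change 0.27, adjusted p = 0.000142).

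The exit tunnel and its rim held the largest single change. The 9 genes listed for it here all rose, as nearly all members did (Rpl17, Rpl19, Rpl22, Rpl23a, Rpl26, Rpl31, Rpl35, Rpl38 and Rpl39). Their log2 fold changes ran from 0.20 to 0.47, with a median of 0.27. Rpl38 (ENSMUSG00000057322, chromosome 11, 114668524 to 114672331), known for its effect on translation of Hox mRNAs, had 1861 and 2652 counts in the controls and 3387, 3203 and 3089 with TGF-β1. In CPM these were 52.3 and 63.1, then 84.2, 76.2 and 79.9. Every treated library was above both controls, and the controls lay far apart for a member. The log2 fold change was 0.47 (SE 0.0786, adjusted p = 0.00100), and it ran from 0.35 to 0.62 when single libraries were left out.

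Rpl35 (ENSMUSG00000062997, chromosome 2, 39001580 to 39005624), which sits at the tunnel's mouth, rose from 168 and 180 CPM to 236, 225 and 231 CPM. Its log2 fold change was 0.41 (SE 0.0395, adjusted p = 3.1e-05), the largest relative to its error among the 6 largest increases. Rpl30, an RNA-binding protein of the large subunit, rose from 128 and 136 CPM to 183, 166 and 170 CPM (log2 fold change 0.39, adjusted p = 0.0002). Rpl37, a zinc-binding protein, rose from 113 and 126 CPM to 162, 148 and 148 CPM (log2 fold change 0.36, adjusted p = 0.000857). TGF-β1 replicate 1 was the highest library for each of these.

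In the small subunit, the genes at the channel through which the mRNA enters also rose. All 3 (Rps2, Rps3 and Rps9) did so, with a median log2 fold change of 0.26, the same as over all members. Rps2 (ENSMUSG00000044533, chromosome 17, 24718116 to 24721929), the most abundant small-subunit member per kilobase, read 820 and 812 CPM in the controls and 962, 966 and 976 CPM with TGF-β1. Its log2 fold change was 0.25 (SE 0.0215, adjusted p = 1.51e-05), with less spread inside the groups than most members had.

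The beak is a part of the small subunit. Rps12, one of its proteins, rose from 332 and 341 CPM to 424, 411 and 415 CPM (log2 fold change 0.31, adjusted p = 2.34e-05). Rps27a, made as a fusion with ubiquitin, rose from 195 and 191 CPM to 238, 231 and 227 CPM (log2 fold change 0.27, adjusted p = 0.000182). With Rps10, 3 of 3 beak genes rose, as nearly all members did.

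Rps29 and Rps23 were the largest small-subunit increases. Rps29 (ENSMUSG00000034892, chromosome 12, 69157722 to 69159186), a short zinc-binding protein of the head, read 66.0 and 78.5 CPM in the controls and 101, 89.2 and 92.6 CPM with TGF-β1. Its log2 fold change was 0.38 (SE 0.0790, adjusted p = 0.00342). Rps23, at the decoding centre, rose from 181 and 194 CPM to 258, 236 and 238 CPM (log2 fold change 0.38, adjusted p = 0.00019). As in Rpl38, the 2 controls of Rps29 differed more than those of most members.

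Rps6 is the protein that S6 kinase phosphorylates downstream of mTOR. Its mRNA rose from 391 and 401 CPM to 492, 458 and 468 CPM (log2 fold change 0.26, adjusted p = 0.000271), near the median of the members. Rps4x, the X-linked copy of the S4 protein, rose from 575 and 565 CPM to 655, 659 and 652 CPM (log2 fold change 0.20, adjusted p = 0.000105). Rps15, a protein of the head, rose less, from 260 and 270 CPM to 302, 291 and 297 CPM (log2 fold change 0.16, adjusted p = 0.00247).

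Rpsa, the small-subunit protein also described as a laminin receptor, moved least of the genes called. It stood at 905 and 892 CPM in the controls and at 966, 970 and 969 CPM with TGF-β1 (ENSMUSG00000032518, chromosome 9, 120127689 to 120132369). The groups did not overlap and lay tightly together, and the log2 fold change was 0.11 (SE 0.0210, adjusted p = 0.00248). By library totals it was 0.0088 (adjusted p = 0.760), with the groups overlapping. The next smallest was Rpl10a, a protein of the L1 stalk named here after its values were seen, at 360 and 351 CPM against 397, 378 and 387 CPM (log2 fold change 0.12, adjusted p = 0.00916).

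The 2 members not called were Rps27 and Rpl21. Rps27 (ENSMUSG00000090733, chromosome 3, 90212522 to 90213651), a zinc-finger protein of the small subunit, read 102 and 115 CPM in the controls and 125, 112 and 111 CPM with TGF-β1. Its treated replicates 2 and 3 lay below control 2, and the log2 fold change was 0.093 (SE 0.0659, adjusted p = 0.288). Rpl21, also named after its values were seen, read 276 and 285 CPM and then 303, 289 and 295 CPM, a log2 fold change of 0.079 (SE 0.0326) with adjusted p = 0.0799. A p that misses the threshold does not show that they were level. For Rpl21 the groups did not overlap by TMM.

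Some members have a paralog that can take their place in the ribosome, and the 2 were compared as a ratio of counts in each library. An exact test of 2 against 3 libraries cannot go below p = 0.1, so no ratio could have passed, before or after adjustment. Rps27l, a p53-inducible paralog, held 74.9% and 68.8% of the counts of Rps27 in the controls and 72.4%, 74.8% and 79.2% with TGF-β1. The groups overlap. Alone, Rps27l went from 76.6 and 78.9 CPM to 90.5, 83.4 and 87.8 CPM (log2 fold change 0.17, adjusted p = 0.0209), a call lost without control 1, control 2 or TGF-β1 replicate 1 (adjusted p up to 0.137).

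Rpl22l1, the paralog of the tunnel protein Rpl22, held 23.9% and 23.0% of its counts in the controls and 22.3%, 23.8% and 24.6% with TGF-β1. Rpl36al held 70.3% and 71.6% of the counts of Rpl36a, and then 60.7%, 71.3% and 72.5%. The low value is TGF-β1 replicate 1, in which Rpl36a was high (129 CPM against 116 and 116 in the other treated libraries) and Rpl36al low (78.3 CPM against 82.4 and 84.0). Rpl7l1, a paralog thought to act in ribosome assembly, held 15.3% and 16.1% of the counts of Rpl7 and then 15.8%, 15.6% and 15.2%.

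Paralogs known from single tissues were at the edge of detection. Rpl39l, described in testis, had 5 and 2 counts in the controls and 7, 5 and 14 with TGF-β1, which were 0.0404% to 0.257% of the counts of Rpl39. Rpl3l, of striated muscle, had 0 and 2 and then 0, 5 and 0 counts, and Rpl10l, also of testis, had 0 in every library. These 3 were the members left untested. The 8 ratios tested include that of the subunit sums, and Rpl10l, without counts, gave none. Of these 8, the smallest exact two-sided permutation p was 0.3 (Rps4l over Rps4x, where Rps4l is annotated as a transcribed pseudogene), and all were 1.0 after Benjamini-Hochberg adjustment. These tests therefore say nothing on whether the ratios held.

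Setting the members against their own total asks which genes took a larger or smaller part of the ribosomal protein mRNA. With libraries scaled by that total, 4 members rose (Rpl38, Rpl35, Rpl30 and Rps23) and 3 fell (Rpl10a, Rpsa and Rpl21) at an adjusted p under 0.05. Under this scaling 7.92% of all genes rose and 44% fell, since the median of all genes moved to −0.24. Rpl38 held 0.234% and 0.276% of the members' counts in the controls and 0.309%, 0.289% and 0.301% with TGF-β1 (log2 change of the share 0.23, adjusted p = 0.0189). Rpsa held 4.06% and 3.90% and then 3.54%, 3.68% and 3.65% (−0.13, adjusted p = 0.00786). Rpl21 held 1.23% and 1.24% and then 1.111%, 1.096% and 1.112% (−0.16, adjusted p = 0.00338). For each of these the groups did not overlap. Leaving out libraries was not run under this scaling.

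The size of the rise went with the length of the coding sequence, and so did the gap between the 2 controls. Members range from 75 coding bases (Rpl41) to 1257 (Rpl4). Over the 78 tested, log2 fold change against coding length had a Spearman rho of −0.48 and a Pearson r of −0.41. The ratio of control 2 to control 1 against the same length had a rho of −0.68. These are descriptions across genes that share libraries, and genes are not independent replicates. Over 13671 tested protein-coding genes the same 2 rho values were −0.086 and −0.068. The rise also went with level, with a rho of −0.37 against mean CPM in members and 0.27 over protein-coding genes. Length and level were not separated.

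Control 1 carries much of the pattern with length. In the 10 members of up to 300 coding bases, which include Rpl38, Rpl37 and Rps29, the median log2 fold change was 0.32, and the median gap between controls was 0.16. Without control 1 their median was 0.24. In the 21 members over 600 bases the median was 0.25 with both controls and 0.24 without control 1, and the controls differed by a median of 0.015. Without control 1 the relation over all 78 had a rho of −0.15, and without control 2 it had −0.58. The treated libraries also differed with length. In members, the ratio of TGF-β1 replicate 3 to the mean of replicates 1 and 2 had a rho of 0.26, against 0.019 over protein-coding genes.

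**Figure D3:**
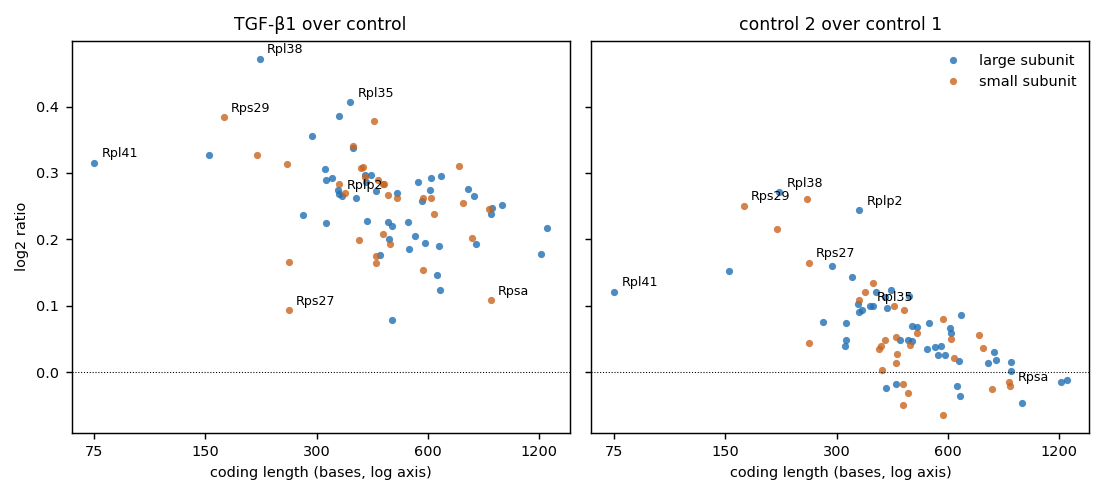
Coding length on a log axis against the log2 ratio of TGF-β1 to control (left) and of control 2 to control 1 (right) for the 78 tested members, colored by subunit. Short genes such as Rpl38 and Rps29 are high in both panels, with rho −0.48 on the left and −0.68 on the right.

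Calls depended on control 1 more than on any other library. Without it 69 members rose (15.4% of all genes higher, 16.5% lower), and those lost were Rpl24, Rpl27a, Rpl36al, Rplp2, Rps21, Rps27l and Rps28. Without control 2 the number was 74, with Rpl10a and Rps27l lost (15.6% and 16.7%). Without TGF-β1 replicate 1 it was 75 (19.3% and 21.2%), and it was 76 without replicate 2 (19.2% and 21%) or 3 (22.4% and 24%). The members' median stayed between 0.23 and 0.28 in these 5 fits.

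Ribosomal protein genes have many processed pseudogenes, and reads from one copy can be counted on another. A search of the coding sequences against annotated transcripts found at least 1 near-identical copy for 76 of the 81 members and 618 copies in all. The copies held counts equal to 12.5% of the members' own. For 44 members they exceeded 0.1 of the member's counts, among them Rpl38 (0.25), Rpl35 (0.325), Rps23 (0.165), Rpl37 (0.202), Rps29 (0.114), Rps2 (0.156), Rps6 (0.289), Rpl5 (0.296), Rpl11 (0.281) and Rps12 (0.153). The levels of these members are uncertain. By how much cannot be told, since the multi-mapping setting is not known.

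Members with few and with many counts on copies had nearly equal medians. The 34 tested members with copies at or under 0.1 had a median log2 fold change of 0.27 with 33 called, and the 44 above it had 0.26 with 43 called. Adding the copies' counts to each member gave 77 higher (21.8% of all genes higher, 23.2% lower) and a median of 0.27. Rpl21, which has 61 copies with 0.420 of its own counts, was then called (log2 fold change 0.081, adjusted p = 0.0409). Exons of an opposite-strand gene with over 0.1 of the member's counts overlap Rpl28 (Ube2s), Rpl35 (Arpc5l), Rps25 (Trappc4), Rps18 (Vps52) and Rpl18 (Sphk2). Other members have opposite-strand overlaps with a smaller share, such as Rpl32 (Cand2, 0.080) and Rpl5 (Fam69a, 0.065). No source used here gives the strand setting of the counting.

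The genes that build and use ribosomes were examined beside their proteins. Counts in these lists stand against 21.3% higher and 23.2% lower over all genes tested, and 48% and 22.1% among the 2920 abundant genes. The lists were not matched to those abundant genes in level, and several of their genes were scarcer. None of the lists was tested against other genes. The ribosomal proteins outside the naming rule also rose, 5 of 5, Fau, Rack1, Rpl7l1 and Rpl22l1 among them, with a median log2 fold change of 0.26. Rack1, the scaffold on the small subunit's head, rose from 733 and 723 CPM to 912, 913 and 918 CPM (log2 fold change 0.33, adjusted p = 2.28e-06). The call of Rpl7l1 was lost without control 1 (adjusted p = 0.130), which left 4 of 5. Rps3a1, left out only because its symbol has a second number and named after its values were seen, rose by 0.18 (adjusted p = 0.00100).

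Assembly factors rose too, with larger medians than the proteins they assemble. Of the genes of the small nucleolar particles and small-subunit assembly, 35 of 39 rose and 0 fell, with a median of 0.37, led by Rrp12 (0.69), Tsr1 (0.63) and Gar1 (0.59). Of the large-subunit assembly genes, 32 of 40 rose, with a median of 0.40. Las1l, which cuts the precursor RNA between the large-subunit rRNAs, rose from 32.9 and 31.2 CPM to 58.1, 59.0 and 58.2 CPM (log2 fold change 0.87, adjusted p = 1.06e-06). Gnl3 (0.68) and Mrto4 (0.63) came next, and Rbm28 was the only 1 lower (−0.20, adjusted p = 0.0275, lost without control 1 or TGF-β1 replicate 2). The difference between these lists and the members was not tested.

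RNA polymerase I, which transcribes the rRNA precursor, had 8 of 16 genes higher and 0 lower, with a median of 0.18 (Cd3eap 0.54, Polr1e 0.54 and Taf1d 0.45). That share is above the 21.3% of all genes and near the 48% of abundant genes. However, Polr1b, Polr1c, Polr1e, Twistnb, Cd3eap and Znrd1 were scarcer than any of those abundant genes. Fewer of the 16 were called without control 2, and by library totals 4 were higher and 1 lower. Among chaperones of ribosomal proteins and factors that meet the new chain, 6 of 11 rose and 0 fell, with a median of 0.20 (Grwd1, the Rpl3 chaperone, 0.57, Dnajc2 0.47 and Bccip 0.29), a share near that of abundant genes. Of translation initiation factors 28 of 38 rose and 0 fell, with a median of 0.22 (Eif2b3 0.70, Eif2s2 0.56 and Eif2b2 0.49). By library totals the medians were 0.077 for RNA polymerase I, 0.11 for chaperones and 0.12 for initiation factors, with 2 of the last lower.

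Other mRNAs known to carry a TOP tract are the closest match in kind. Of these 15 of 18 rose and 0 fell, with a median of 0.19 (Npm1 0.46, Pabpc4 0.39 and Eef1b2 0.38), and Pabpc1, Eif3h and Eif4b were not called. By library totals the median was 0.086, and 2 were lower. Npm1, Naca, Btf3 and several initiation factors stand in more than 1 of these lists.

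Genes that act on TOP mRNAs moved in both directions. In the TOR pathway list 9 of 19 rose and 2 fell, with a median of 0.12, or 0.017 by library totals. The share that rose is near that of abundant genes. Rheb, the activator of mTOR, rose from 110 and 113 CPM to 181, 182 and 176 CPM (log2 fold change 0.69), and Eif4ebp1, a repressor of initiation that mTOR inactivates, rose by 0.55. Mtor (−0.22, adjusted p = 0.00263) and Tsc2 (−0.14, adjusted p = 0.0341, lost in 4 of the 5 fits that leave out a library) fell. Myc, a transcription factor known to drive ribosome genes, was at 30.4 and 30.6 CPM in the controls and at 60.0, 61.2 and 35.9 CPM with TGF-β1. Replicate 3 thus lay near the controls, and the call (log2 fold change 0.78, adjusted p = 0.00923) was lost without either control (adjusted p up to 0.0788). In the members, replicate 3 (median 0.25) lay with replicate 2 (0.24). Whether Myc had a part in the members' rise was not tested.

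**Figure D4:**
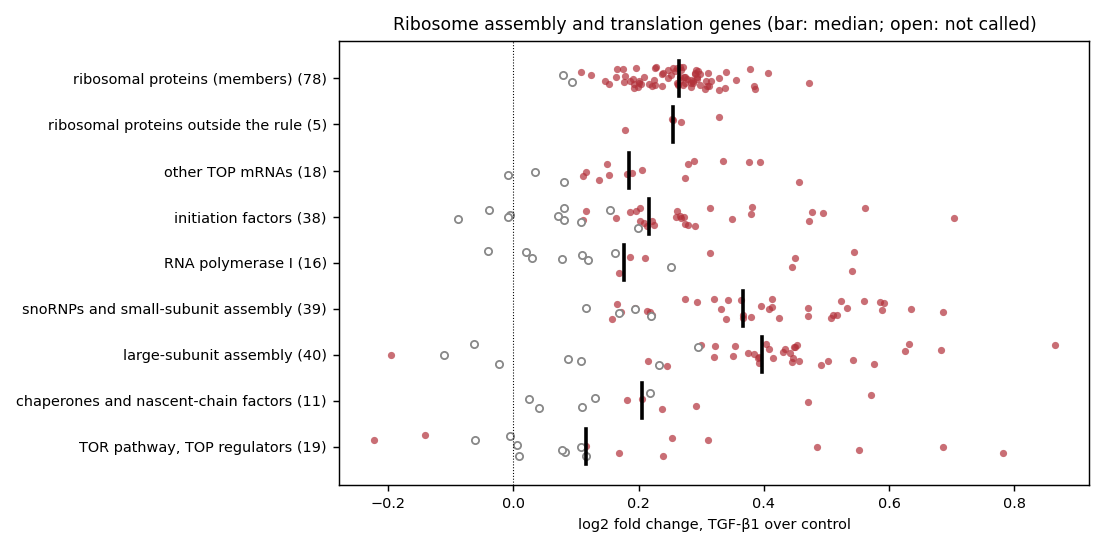
Log2 fold change of TGF-β1 over control for the tested members and 8 related gene lists, 1 point per gene, with the median as a bar and open points for genes not called. Members form a tight group, between 0.079 and 0.47, while both assembly lists have medians further right, at 0.37 and 0.40.

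Markers of cell types also moved with the treatment. Summed over 9 fibroblast markers the level was 26140 to 27148 CPM in the controls and 33270 to 33535 CPM with TGF-β1, with 4 higher and 5 lower. All 9 mesothelial markers fell, from 1398 to 1484 CPM summed to 168 to 188 CPM. Of 6 leukocyte markers 5 fell and 1 rose (2370 to 2447, then 1430 to 1461 CPM), and of 5 pericyte and smooth muscle markers 3 fell and 1 rose (516 to 524, then 376 to 382 CPM). Endothelial markers summed to at most 3.54 CPM and epithelial markers to at most 4.10 CPM, with Sftpc, Sftpb and Scgb1a1 at 0. Mitochondrially encoded mRNAs held 2.11% to 2.25% of counts in every library. The part of these other cells in the rise of ribosomal protein mRNAs was not tested.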

How the data were processed

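The authors deposited 1 table of raw, whole-number counts per Ensembl gene for 5 poly(A) libraries, made with a stranded kit, per the labels' protocols. Totals were 34283288 to 43163967 counts, and the quasi-likelihood model takes counting error into account. The submitters' processing notes name STAR 2.5.3a, StringTie 1.3.1c and build mm10. No source used here gives the counting tool, its strand and multi-mapping settings or the annotation release. Columns were matched to samples by title. GENCODE M21 gave symbols for 55154 IDs, and the other 181 stayed in the tests.

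Genes kept by filterByExpr were scaled by TMM and tested with edgeR 4.0.16 (R 4.3.3), quasi-likelihood F test on group alone, two-sided, Benjamini-Hochberg over all 16380 genes, threshold 0.05. The test was checked on simulated data. SEs were worked back from the F statistic. CPM per library is TMM-scaled. Members were ranked by level per kilobase of the principal transcript, while the abundance background and paralog percentages use CPM and counts not scaled by length. Ratios of counts used a pseudocount of 0.5 and exact permutation over libraries. Copies were coding-sequence matches by blastn 2.17.0+ of at least 95% identity over 150 bases (or 0.8 of a shorter coding sequence) to pseudogenes, provisional genes or transcripts covered to at least 0.5.

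Members, gene lists, roles and tests were chosen with earlier results of these data known. Named by rule were the 6 largest changes per direction (adjusted p under 0.05, mean of at least 5 CPM; none fell), the 4 most abundant per kilobase of each subunit, stalk genes, Rpsa, paralog pairs, Rps6, Rpl5, Rpl11, Rps27a, and up to 3 genes per related list. Nhp2l1 had no match. A few genes are counted in the totals but not reported here by name. Alternatives were other scalings (median of ratios, upper quartile, library totals, the members' own total), no filter or over 1 CPM in 2 libraries, DESeq2 1.42.0, limma-voom 3.58.1, a replicate block, leaving out each library and, chosen after seeing the data, adding the copies' counts. With a control left out, the remaining 1 is taken to vary as TGF-β1 libraries do.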

Additional observations from a re-analysis of the deposited data

How the results depend on the processing

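Under median-of-ratios and upper-quartile scaling, no filter, over 1 CPM in 2 libraries, DESeq2 and limma-voom, 76 members rose and 0 fell. The cause of the changes listed here was not tested, except that scaling shifts all genes together.

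By library totals the medians were 0.16 for members, 0.17 for the large and 0.16 for the small subunit. For the related lists they were 0.16 (proteins outside the rule), 0.086 (TOP mRNAs, 2 lower; 0.18 by upper quartile), 0.12 (initiation, 2 lower), 0.077 (RNA polymerase I, 4 higher, 1 lower), 0.27 (small-subunit assembly), 0.30 (large-subunit assembly, 3 lower), 0.11 (chaperones) and 0.017 (TOR).

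By the members' own total, 4 members rose and 3 fell (median 0.023): 3 and 2 in the large (0.024) and 1 and 1 in the small subunit (0.021). Higher, lower and median were 0, 0 and 0.014 outside the rule, 3, 7 and −0.057 for TOP mRNAs, 7, 10 and −0.024 for initiation, 3, 1 and −0.065 for RNA polymerase I, 15, 0 and 0.13 for small-subunit assembly, 19, 5 and 0.16 for large-subunit assembly, 2, 2 and −0.037 for chaperones, and 3, 8 and −0.13 for TOR. Fitted changes turned negative for Rpl10 (−0.051), Rps4x (−0.041), Rps15 (−0.078), Rpsa (−0.13), Rps27 (−0.15, and −0.0063 by library totals), Rps27l (−0.077), Rpl36al (−0.016), Rpl3 (−0.064), Rpl7 (−0.049), Rpl7l1 (−0.063) and Rpl11 (−0.056).

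Without a filter 0 large-subunit assembly genes and 1 TOR gene were lower. Leaving out 1 library gave 69 to 76 members higher and a share difference of 0.208 to 0.281 points. With all libraries the difference was 0.279 with copies and 0.251 of protein-coding counts. Without the members rich in copies it was 0.117. The members left hold a smaller share of the counts, so this value cannot be set beside the others. In proportion to the control share, the rise was nearly the same as over all members. Leaving out 1 library gave list medians of 0.21 to 0.31 (outside the rule), 0.18 to 0.20 (TOP), 0.22 to 0.24 (initiation), 0.16 to 0.21 (RNA polymerase I, 4 to 8 higher), 0.35 to 0.40 (small-subunit assembly), 0.39 to 0.41 (large-subunit assembly, 0 to 1 lower), 0.17 to 0.21 (chaperones) and 0.080 to 0.16 (TOR, 1 to 2 lower).

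Deviations from the group means had correlations of −0.016 to 0.016 between control and TGF-β1 libraries. The deviations of the 2 controls mirror each other, so these values cannot show whether replicate numbers pair the samples. With the replicate number as a block 76 members rose (46 and 30 by subunit; median 0.27), and the medians were 0.39 for small-subunit assembly, 0.41 for large-subunit assembly and 0.084 for TOR.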
